A study of Mus musculus with 6 samples.

Results

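The cytosolic ribosome is built from ribosomal RNA and ribosomal proteins, with the Rpl and Rplp proteins in the large subunit and the Rps proteins and Rpsa in the small subunit. The genes described here were those whose probe sets, groups of oligonucleotides against a transcript, carried exactly 1 gene symbol of the form Rpl, Rps, Rplp0 to Rplp2 or Rpsa, with the S6 kinases and pseudogenes left out. The rule found 49 genes of the 18193 measured, 26 of the large and 23 of the small subunit, on 105 of 34945 probe sets. Another 28 symbols of this form, among them Rpl3, Rpl5, Rpl10 and Rplp1, appear on the array only beside further gene symbols, and those genes were not analysed here.

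Liver RNA was measured in 3 wild-type mice (HLJ1+/+, written Dnajb4+/+ after the gene that encodes HLJ1) and 3 HLJ1 knockout mice (HLJ1-/-, written Dnajb4-/-). All 6 mice are labelled as male C57BL/6 aged 6 to 8 weeks, had free access to food and water and received no agent. How the knockout allele was made and which part of the gene it lacks are not given in the sources used here. Each array is labelled as the liver of 1 mouse, a biological replicate, and in bulk tissue fewer cells of a type and less RNA per cell cannot be told apart. Values are the deposited GCRMA intensities, averaged for each gene after taking log2, so that a gene's intensity below is the geometric mean of its probe sets. Genotypes are named as labelled. They were compared by limma, the Benjamini-Hochberg adjustment covered every gene measured, and a gene passed at an adjusted p under 0.05.

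The targeted gene Dnajb4 averaged 132, 143 and 135 in the Dnajb4+/+ arrays and 117, 125 and 130 in the Dnajb4-/- arrays, without overlap (log2 difference -0.14, limma adjusted p = 0.145). Its brightest probe set fell from 589 ± 23.5 to 466 ± 13.6 (SD, n = 3; -0.34, limma adjusted p = 0.00768 over all probe sets) and the others overlapped. As the deleted part is not known here, these probe sets do not check the labels. Medians lay between 31.8 and 32.5 per array. All 10 measured hepatocyte markers lay above the median gene in signal, with summed intensities of 146300 to 147200 in Dnajb4+/+ and 147100 to 147700 in Dnajb4-/- livers. Summed markers of several other cell types differed between the genotypes. Of 10 Kupffer cell and macrophage markers 9 were lower in Dnajb4-/- livers (sums of 5927 to 6233 against 4582 to 4834), of 10 skeletal muscle markers 9 were lower (700.3 to 760.8 against 330.7 to 345.3), and of 8 endothelial markers 4 were lower (1372 to 1458 against 1181 to 1263). Of 8 lymphocyte markers 1 was lower (sums of 230.8 to 231.0 against 221.5 to 228.1), and the sums of 4 erythroid markers overlapped (1572 to 1595 against 1527 to 1573). Sums did not overlap for neutrophils (2 of 6 markers lower, 244.2 to 256.2 against 206.4 to 219.3) and stellate cells and fibroblasts (1 of 8 lower, 890 to 902.4 against 823.2 to 860.3). Nor did they for cholangiocytes (1 of 5 higher, 131.7 to 147.6 against 151.4 to 156.5) and pancreatic acinar cells (1 of 4 higher, 665.9 to 682.3 against 928.3 to 986.9). The acinar difference rested on Cela1 (603 ± 9.36 against 873 ± 35.0, SD, n = 3), and the other acinar markers were dim and overlapped. Xist, the RNA that silences an X chromosome in female cells, had a mean intensity of 385 in Dnajb4+/+ and 16.2 in Dnajb4-/- livers, so the Dnajb4+/+ arrays go against their label of male mice, and sex cannot be told apart from genotype in any result below. If RNA of several mice was pooled, the p-values measure technical spread. The ratio of 3' to 5' signal was 1.16 to 1.19 for Gapdh in Dnajb4+/+ and 1.43 to 1.48 in Dnajb4-/- livers, and 2.60 to 2.68 against 3.10 to 3.22 for Actb. The part of these differences in the results below was not tested.

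Ribosomal proteins are needed in nearly equal numbers, and surplus copies are degraded. Their mRNAs commonly start with a run of pyrimidines, the 5' terminal oligopyrimidine (TOP) tract. Through this tract the kinase mTORC1 and the RNA-binding protein LARP1 control translation. In the liver ribosomes supply the synthesis of plasma proteins and of growing hepatocytes. Promoter sequences from RefSeq (build GRCm38.p6) were found for 43 of the 49 genes, with 51 windows in all from 250 bases before to 50 bases after an annotated start. Rpl7, Rpl8, Rps4l, Rps14, Rps20 and Rps29 have no entry there.

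Shown here are the start regions of 5 of the 6 genes that passed the test and of Rpl27, which had the largest difference upward, from 100 bases before the annotated start. The windows are chr7:3703941-3704055, plus strand for Rps9, chr17:27635230-27635344, minus strand for Rps10, chr7:99483695-99483809, minus strand for Rps3, chr4:152324336-152324450, plus strand for Rpl22, chr10:128549154-128549268, minus strand for Rpl41 and chr11:101442145-101442259, plus strand for Rpl27. The first 15 transcribed bases close each line, and capitals mark the longest run of C and T that comes within 5 bases of the start.
Rps9: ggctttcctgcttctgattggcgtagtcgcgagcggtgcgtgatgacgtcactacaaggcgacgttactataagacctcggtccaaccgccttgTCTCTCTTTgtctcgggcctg
Rps10: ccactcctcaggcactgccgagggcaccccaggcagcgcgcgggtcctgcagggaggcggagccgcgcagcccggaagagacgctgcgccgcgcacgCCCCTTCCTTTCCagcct
Rps3: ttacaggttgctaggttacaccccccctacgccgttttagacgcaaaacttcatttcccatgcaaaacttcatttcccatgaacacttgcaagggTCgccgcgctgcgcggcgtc
Rpl22: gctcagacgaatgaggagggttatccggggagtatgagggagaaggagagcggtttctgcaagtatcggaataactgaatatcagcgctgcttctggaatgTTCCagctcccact
Rpl41: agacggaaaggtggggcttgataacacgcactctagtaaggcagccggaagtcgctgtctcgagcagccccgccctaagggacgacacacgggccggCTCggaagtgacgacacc
Rpl27: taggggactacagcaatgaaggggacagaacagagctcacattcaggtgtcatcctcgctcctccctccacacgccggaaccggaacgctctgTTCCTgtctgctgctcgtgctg
The run had 13 bases in Rps10 and 9 in Rps9, 5 in Rpl27, 4 in Rpl22, 3 in Rpl41 and 2 in Rps3. A run of 6 or more was found in 23 of the 51 windows (45.1%) and in 20.2% of all 32851 promoter windows of the table. The letters CCGGAA, searched on both strands, stood in 54.9% of the windows of ribosomal protein genes and in 14.9% of all windows. GGGCGG was in 52.9% against 35.7%, and TATAAA in 11.8% against 13.6%. Rps10, Rps3, Rpl41 and Rpl27 hold CCGGAA and GGGCGG in their full windows, Rpl22 holds TATAAA, and Rps9 holds none of the 3. The genes that passed thus include starts with and without a pyrimidine run, and matches of letters are a description only.

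Most ribosomal protein mRNAs lay at nearly the same level in the livers of both genotypes. Of the 49 genes, 39 (79.6%) differed by less than 0.1 on the log2 scale, as did 57.0% of all genes. In the upper quartile group of signal, 31 of the 40 members (77.5%) did so, beside 48.5% of all genes there. In Dnajb4-/- livers 6 of the 49 genes were lower, 0 were higher and 43 did not pass. This share of 12.2% stood beside 14.7% of all genes called in either direction, 9.57% lower and 5.09% higher. None differed by 2-fold or more (0 of 49, beside 0.412% of all genes). The 6 lower genes were all among the 40 members of the upper quartile group of signal (15%), where 30.8% of 4548 genes were called. The median log2 difference (Dnajb4-/- minus Dnajb4+/+) was -0.009, and 0.008 over all genes. With each array centred on its brighter probe sets these medians were 0.026 and 0.043, so the sign of the family's median rests on the scaling.
At an unadjusted p under 0.05 by limma, 2 ribosomal protein genes were higher and 7 lower. The share of all genes there was not counted, so these counts give no result about the family. With limma's variance set by a trend on signal, 5 were called higher and 13 lower (36.7% of the members and 19.5% of all genes). The methods' t-test with the same adjustment called 2 higher and 7 lower, beside 3.82% and 7.38% of all genes. The standard errors in the reported fit were 0.034 to 0.067 for the 40 brighter genes, and up to 0.101 for the other 9. Fitted within the upper quartile group alone, 3 of the 40 members were higher and 10 lower, beside 19% and 35.1% of its genes.

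**Figure D1:**
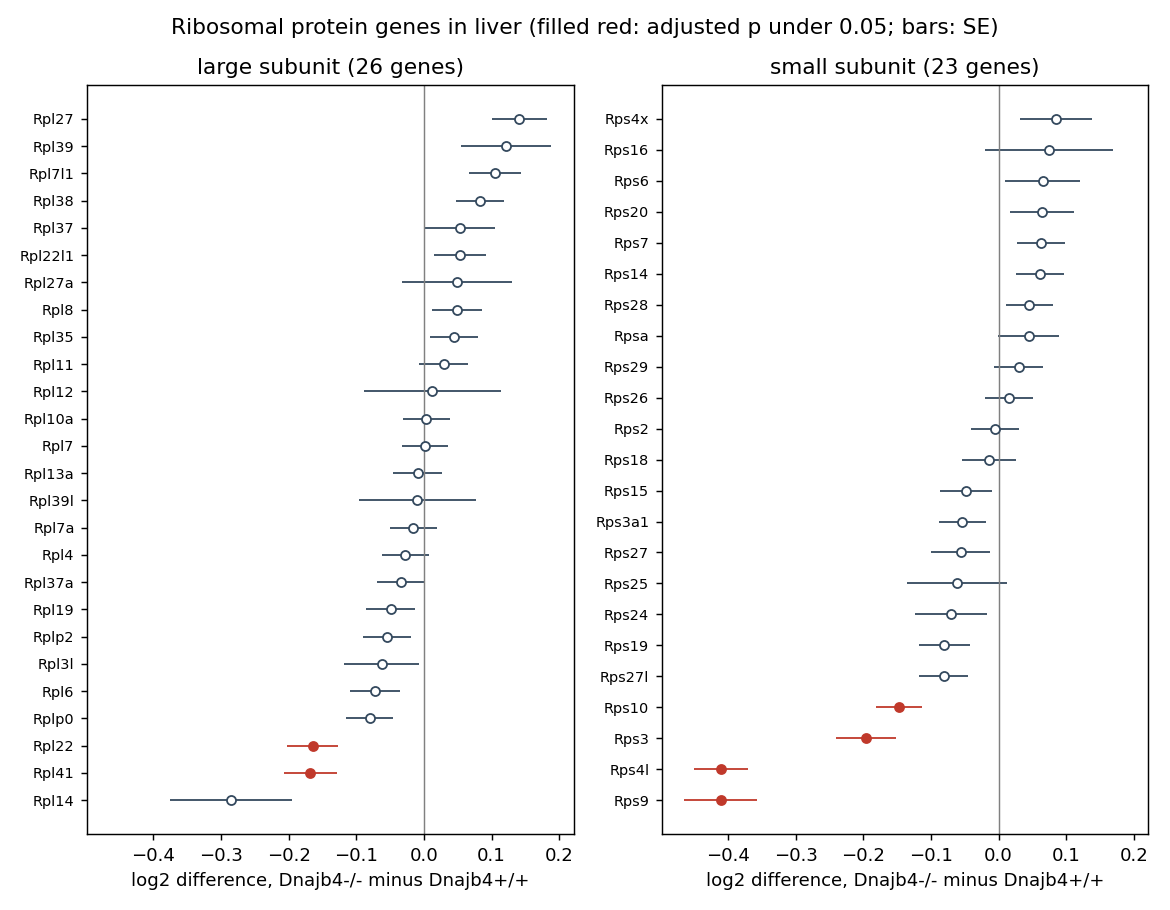
Log2 difference (x axis, Dnajb4-/- minus Dnajb4+/+) with its standard error for each of the 26 large-subunit genes (left) and 23 small-subunit genes (right), n = 3 arrays per genotype. Filled red points passed an adjusted p of 0.05 by limma and lie between -0.41 and -0.15, and the open points lie between -0.29 (Rpl14) and 0.14 (Rpl27).

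The genotypes did not overlap in 24 of the 49 genes (49.0%), 16 lower and 8 higher in Dnajb4-/- livers. Over all genes 35.5% did not overlap, and 62% of those in the upper quartile group of signal. Without overlap but short of the test were genes with differences as small as -0.03 for Rpl4 and 0.03 for Rps29. The spread between arrays of a genotype had a median of 0.0262 on the log2 scale for ribosomal protein genes and 0.0701 for all genes. In the upper quartile group of signal it was 0.0206 for the 40 members and 0.0408 for all genes. Differences of a few percent thus already part the arrays.

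**Figure D2:**
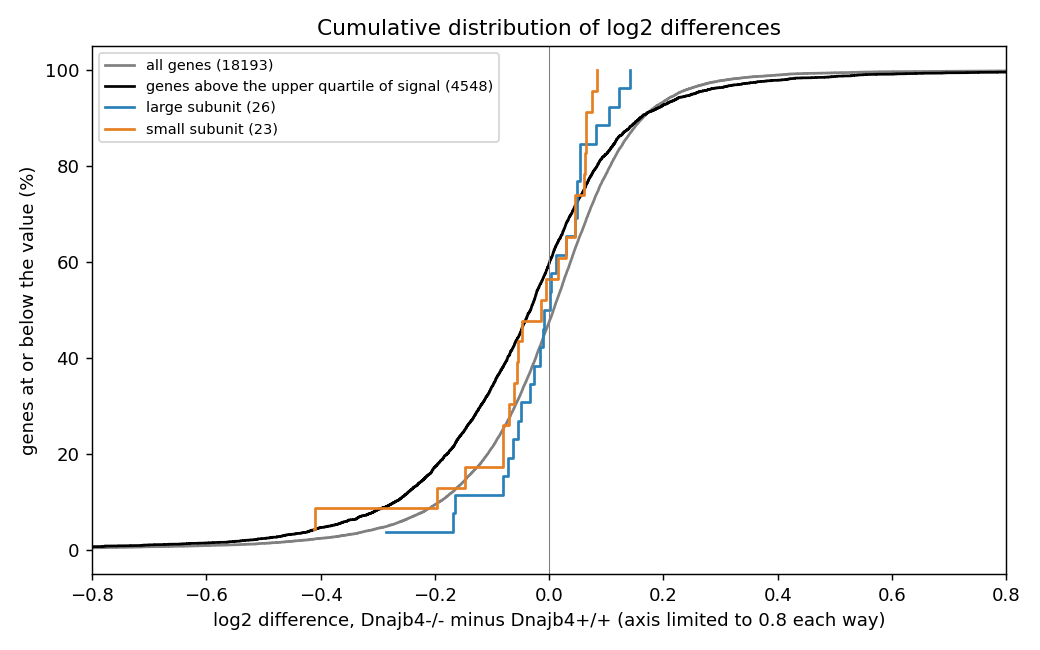
Cumulative share of genes (y axis, percent) at or below each log2 difference (x axis, Dnajb4-/- minus Dnajb4+/+) with the ends of the x axis trimmed, for all 18193 genes, the 4548 genes of the upper quartile group of signal, and the 26 large-subunit and 23 small-subunit genes. Both subunits rise steeply around 0, with 76.9% and 82.6% of their genes within 0.1 of it against 57.0% of all genes, and the 2 steps far to the left at -0.41 are Rps9 and Rps4l.

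In the small subunit, 4 of 23 genes (17.4%) were lower and 19 did not pass. Rps9, a protein of the body of the small subunit that helps keep decoding accurate, had the lowest difference of the family with Rps4l. Its intensity was 859, 806 and 883 in the 3 Dnajb4+/+ arrays and 607, 666 and 643 in the Dnajb4-/- arrays. Every Dnajb4-/- array lay below every Dnajb4+/+ array, with a mean at 75.2% of the Dnajb4+/+ mean. On the log2 scale it differed by -0.41 (SE 0.05), with a limma adjusted p of 0.00341.
The 3 probe sets of Rps9 all separated the genotypes but disagreed on the size. The dimmest is the only one whose design is not of the kinds that can read several genes. The middle one fell with a log2 change of -0.67, at 2188 ± 133 and 1376 ± 121 (SD, n = 3; limma adjusted p = 0.00280 over all probe sets). The dimmest read 42.4 ± 5.60 and 30.9 ± 2.62 (-0.45, adjusted p = 0.0376). The brightest read 6646 ± 85.9 and 6148 ± 197 (SD, n = 3), -0.11 with an adjusted p of 0.156, so by the brightest probe set alone (adjusted p = 0.111 in limma over all genes) Rps9 did not pass. With linear averages of the probe sets the gene's difference was -0.23 (adjusted p = 0.00842 in limma).

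Rps4l, an autosomal paralog of the X-linked Rps4x, was read by 1 probe set. It stood at 387, 371 and 393 in Dnajb4+/+ and at 283, 291 and 291 in Dnajb4-/- livers. The groups were far apart against their spread, and the Dnajb4-/- mean was 75.2% of the Dnajb4+/+ mean. On the log2 scale it differed by -0.41 (SE 0.04), with a limma adjusted p of 0.00103. It was called lower under all 18 alternatives tried, with adjusted p from 8.89e-06 to 0.0116 and differences from -0.44 to -0.37. As Rps4l has a single probe set, the alternatives that choose or average probe sets could not change its difference. Rps4x itself, on the X chromosome, did not pass (0.08, adjusted p = 0.343), with 585 to 630 in Dnajb4+/+ and 616 to 681 in Dnajb4-/- livers. That value came from a dim probe set at 43.3 and 49.0 (0.18), whereas the bright one read 8471 ± 19.8 and 8432 ± 134 (SD, n = 3; -0.0069), so the sign turned with the brightest probe set or linear averages. Close copies such as these may share signal on an array.

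Rps3, which lines the mRNA entry channel and also acts in DNA repair, had 346, 352 and 332 in Dnajb4+/+ and 310, 290 and 299 in Dnajb4-/- livers. The arrays did not overlap, and Rps3 differed by -0.20 (log2, SE 0.04, limma adjusted p = 0.0284). Its bright probe set read 5739 ± 81.6 and 5126 ± 88.9 (SD, n = 3), or -0.16 (limma adjusted p = 0.0485 over all probe sets). The other Rps3 probe sets lay at -0.23 and -0.19 and did not pass.
Rps10, a protein of the small subunit's head that is ubiquitinated on stalled ribosomes, had 2289, 2304 and 2300 in Dnajb4+/+ and 2068, 2071 and 2084 in Dnajb4-/- livers. Replicates lay close together and the groups did not overlap. Rps10 differed by -0.15 (log2, SE 0.03, limma adjusted p = 0.0315). Of its 6 probe sets 5 had every Dnajb4-/- array below every Dnajb4+/+ array, with differences from -0.24 to -0.14, and the dim probe set at 38.7 and 38.8 overlapped.
The calls of Rps3 and Rps10 were lost with arrays centred on the brighter probe sets (limma adjusted p = 0.0849 and 0.0741), and that of Rps3 with quantile normalization (0.0663). Leaving out any 1 of the 6 arrays ended the call of Rps10 (0.0769 to 0.0931). Rps3 kept its call only without Dnajb4+/+ replicate 3 (0.0447) or Dnajb4-/- replicate 1 (0.0432), and its other values were 0.0793 to 0.0928.

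**Figure D3:**
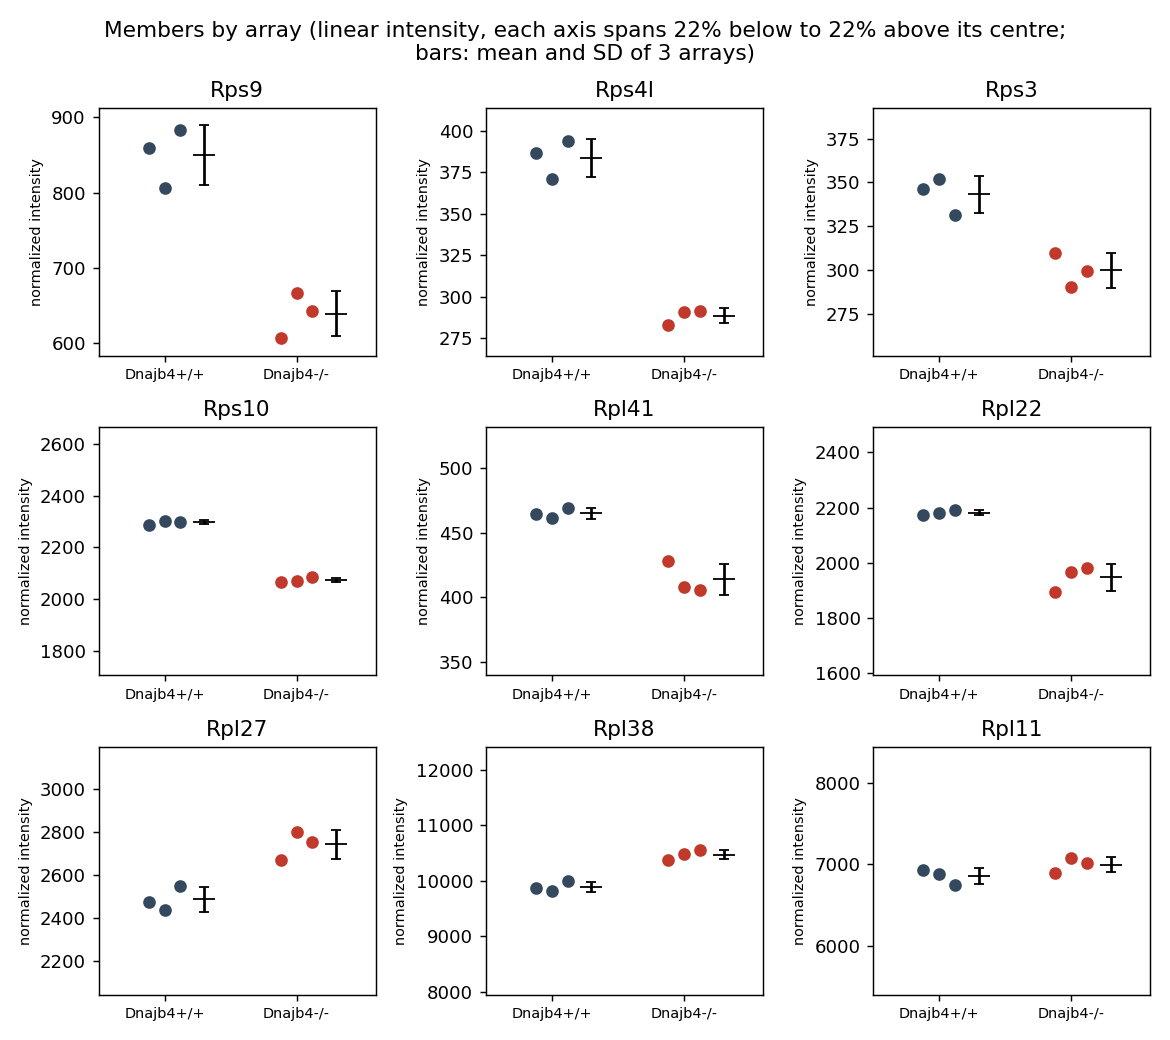
Normalized intensity (linear scale) of 9 ribosomal protein genes in each of the 6 arrays, with mean and SD (n = 3) beside the points, each y axis running from 22% below to 22% above its own centre. Rps9, Rps4l, Rps3, Rps10, Rpl41 and Rpl22 have all Dnajb4-/- arrays below all Dnajb4+/+ arrays, Rpl27 and Rpl38 have them above, and the arrays of Rpl11 overlap.

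In the large subunit, 2 of 26 genes (7.69%) were lower and 24 did not pass. Rpl22, a ribosomal protein that also binds RNA outside the ribosome and is not essential in mice, had 2174, 2179 and 2191 in Dnajb4+/+ and 1893, 1965 and 1983 in Dnajb4-/- livers. The Dnajb4+/+ arrays lay close together and all above the Dnajb4-/- arrays. It differed by -0.16 (log2, SE 0.04, limma adjusted p = 0.0294), and the 3 probe sets gave -0.24, -0.15 and -0.095. Its paralog Rpl22l1, whose mRNA the Rpl22 protein is known to bind, had 3456 to 3597 in Dnajb4+/+ and 3578 to 3680 in Dnajb4-/- livers and did not pass (0.05, adjusted p = 0.404).
Rpl41, the smallest ribosomal protein, had 464, 461 and 469 in Dnajb4+/+ and 428, 408 and 406 in Dnajb4-/- livers. All Dnajb4-/- arrays were lower, at -0.17 on the log2 scale (SE 0.04, limma adjusted p = 0.0313). Both bright probe sets of Rpl41 are of a design that can read several genes and lay at -0.07 and -0.23, and by the brightest alone the gene did not pass (limma adjusted p = 0.304). Rpl22 did not pass by its brightest probe set either (adjusted p = 0.127), and Rpl41 lost its call with arrays centred on the brighter probe sets (0.0849). Rpl22 and Rpl41 also did not pass without probe sets that can read several genes (0.0548 and 0.0569), nor did Rpl22 with linear averages (0.0526). Leaving out any 1 array ended the call of Rpl22 (adjusted p = 0.0619 to 0.0879), and Rpl41 kept it without Dnajb4-/- replicate 1 alone (0.0389).

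The median log2 difference was -0.004 in the large and -0.014 in the small subunit, and their difference of 0.009 came with an SD of 0.00556 between arrays of a genotype. No test of the subunits against each other was made. The difference turned to -0.015 without Dnajb4-/- replicate 2 and lay between 0.007 and 0.035 under the other 17 alternatives. For each array, the median deviation of its genes from their own means was -0.0055 to 0.0098 in the large subunit and 0.0040 to 0.0123 in the small subunit in Dnajb4+/+ livers. In Dnajb4-/- livers it was -0.0111 to 0.0032 and -0.0270 to -0.0031, overlapping for the large and not for the small subunit. Genes of the upper quartile group of signal did not overlap either, with -0.0011 to 0.0359 in Dnajb4+/+ and -0.0397 to -0.0027 in Dnajb4-/- livers.

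The stalk of the large subunit recruits the elongation factors. Its base Rplp0 read 6872 to 6930 in Dnajb4+/+ and 6441 to 6625 in Dnajb4-/- livers (-0.08, adjusted p = 0.183), and the acidic protein Rplp2 read 7941 to 7994 and 7546 to 7748 (-0.05, adjusted p = 0.354). Neither overlapped between genotypes and neither passed, and both passed with the trended variance (limma adjusted p = 0.00216 for Rplp0 and 0.0165 for Rplp2). Rpl11, which with Rpl5 and the 5S RNA binds Mdm2 when ribosome assembly is disturbed, had 6750 to 6933 in Dnajb4+/+ and 6896 to 7077 in Dnajb4-/- livers, overlapping (0.03, adjusted p = 0.641).
In the small subunit, Rps6, the substrate of the S6 kinases, overlapped at 56.7 to 61.4 and 58.8 to 64.9 (0.06, adjusted p = 0.490). Its bright probe set separated the genotypes at 321 to 332 and 343 to 373 (0.12, limma adjusted p = 0.128 by the brightest probe set), and its other probe set lay near the lowest signals of the array at 10.9 and 11.1. Rpsa, known also as the laminin receptor, overlapped at 212 to 227 and 223 to 233 (0.04, adjusted p = 0.561). Rpsa joins a bright probe set, which separated the genotypes at 5797 ± 192 and 6452 ± 209 (SD, n = 3; 0.15, adjusted p = 0.0879 in limma over probe sets), with a probe set near the lowest signals of the array at 8.52 and 8.15.

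Among genes that did not pass, Rpl27, a large-subunit protein, stood highest at 2476, 2439 and 2550 in Dnajb4+/+ and 2672, 2804 and 2756 in Dnajb4-/- livers. All Dnajb4-/- arrays were higher (0.14, standard error 0.04, adjusted p = 0.0592 from limma). Of its 3 probe sets 1 passed (0.22, adjusted p = 0.0217 over all probe sets in limma), and the brightest overlapped between genotypes (0.05). Rpl27 passed under 7 of 18 alternatives, among them quantile normalization (adjusted p = 0.0315) and centring on the brighter probe sets (adjusted p = 0.0161). Rpl38, known for the translation of Hox mRNAs, read 9813 to 9993 and 10382 to 10559 without overlap (0.08, adjusted p = 0.169), and Rps7 and Rps14 did not overlap at differences of 0.06 each (adjusted p = 0.300 and 0.299). Rpl14 had the lowest difference among them, -0.29 at 45.3 ± 2.83 and 37.3 ± 4.16 (SD, n = 3; adjusted p = 0.0810), on a single dim probe set. With the trended variance Rpl38, Rps7, Rps14 and Rpl14 passed too (adjusted p = 0.000719, 0.00968, 0.00895 and 0.0409 in limma). Rpl4, Rpl27, Rpl38, Rpl14, Rps7, Rps14 and Rps29 were chosen for mention after their values were seen.

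The remaining paralogs did not pass. Rpl7l1, a paralog of Rpl7, read 262 to 275 in Dnajb4+/+ and 286 to 295 in Dnajb4-/- livers (0.10, adjusted p = 0.124), without overlap. It passed under 8 of 18 alternatives, among them quantile normalization (0.14, adjusted p = 0.0281), centring on the brighter probe sets (0.14, adjusted p = 0.0364) and the brightest probe set (0.18, adjusted p = 0.0367). Rpl7 stood at 4186 to 4207 and 4192 to 4212 (0.001, adjusted p = 0.988). Its 3 bright probe sets each separated the genotypes, 1 lower (-0.068) and 2 higher (0.021 and 0.050), and none of them passed. Rps27l, a paralog of Rps27 and a known target of p53, read 7322 to 7379 and 6804 to 7072 (-0.08, limma adjusted p = 0.192), also without overlap. It passed under 3 of 18 alternatives (limma adjusted p = 0.00384 with the trended variance). Some of the Rps27l probe sets are of a design that can read several genes. Rps27 was read by 1 dim probe set at 78.9 and 75.9, and overlapped (-0.06, limma adjusted p = 0.446). Rpl39 on the X chromosome read 147 to 169 and 160 to 174 (0.12, adjusted p = 0.281), and its testis-rich paralog Rpl39l lay near the lowest signals (12.4 to 14.4 and 11.8 to 14.3). Rpl3l, which replaces Rpl3 in skeletal and heart muscle, lay there too at 11.8 to 12.8 and 11.1 to 12.4 (-0.06, adjusted p = 0.502), beside the skeletal muscle markers given above, of which 9 of 10 were lower. With Rps4x, Rpl39 makes up the measured X-linked members, and the Xist values given above separate the same arrays.

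The 105 probe sets of the family allow a finer look than the gene averages. Of these, 78 had a mean log2 signal of 7 or more and 27 were dimmer, and 42 genes had at least 1 bright probe set. Fitted over single probe sets, 8 were lower and 1 higher in Dnajb4-/- livers, in 7 genes, where 13.5% of all probe sets were called, 8.34% lower and 5.2% higher. Among the 78 bright ones 8 were called (10.3%), beside 27.1% of all bright probe sets. No gene had called probe sets in both directions, and 13 of the 24 genes with 2 or more probe sets had all of them on the same side of 0. With the dim probe sets left out before averaging, a choice made after seeing the data, 6 of 42 genes were called higher (Rpl7l1, Rpl27, Rpl38, Rps6, Rps20 and Rpsa) and 9 lower, beside 51.5% of the 7220 genes then fitted. Of the 105 probe sets, 43 are of designs that can read several genes (40 and 3 of either design).

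**Figure D4:**
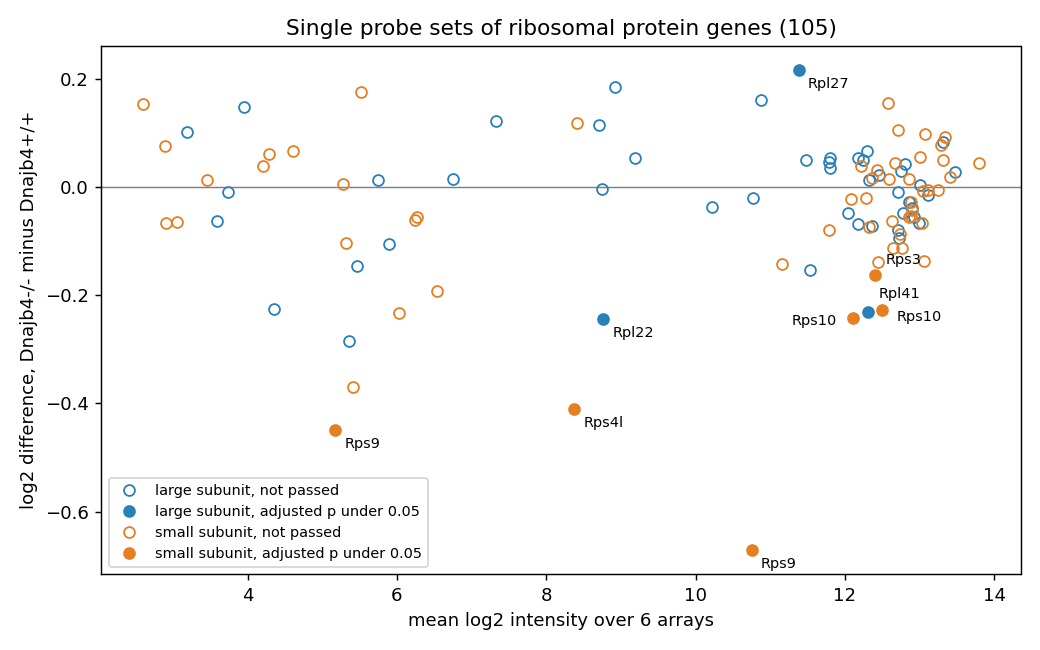
Log2 difference (y axis, Dnajb4-/- minus Dnajb4+/+) of each of the 105 probe sets of ribosomal protein genes against its mean log2 intensity over the 6 arrays (x axis), filled where limma over all probe sets gave an adjusted p under 0.05. The 9 filled probe sets belong to Rps9, Rps4l, Rps10, Rps3, Rpl22, Rpl41 and Rpl27, and from a signal of 12 upward the differences stay between -0.24 and 0.15.

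The machinery that makes and uses ribosomes was counted the same way, from lists of pathway genes. As the share to set beside each list, 14.7% of all genes were called, 9.57% lower and 5.09% higher. In the upper quartile group of signal it was 30.8%. Of 50 measured ribosome biogenesis genes 3 were lower and 47 did not pass (6%, median 0.033). Under the alternatives 0 to 13 were called higher and 1 to 10 lower. Both highest counts came without dim probe sets, where 18.4% of all genes fitted were called higher and 33.2% lower. Sbds, which helps release Eif6 from the large subunit, fell from 690 ± 25.1 to 585 ± 18.8 (SD, n = 3; -0.24, limma adjusted p = 0.0162). The nucleolar chaperone Npm1 fell from 1953 ± 0.993 to 1694 ± 25.5 (SD, n = 3; -0.21, adjusted p = 0.0104), and Nmd3, the export adaptor of the large subunit, from 98.6 ± 2.01 to 86.9 ± 1.78 (-0.18, adjusted p = 0.0225). By its brightest probe set Npm1 did not pass (-0.05, adjusted p = 0.393). Sbds lost its call without Dnajb4+/+ replicate 2, Dnajb4+/+ replicate 3 or Dnajb4-/- replicate 1 (0.0513 to 0.0586), and Nmd3 whichever array was left out except Dnajb4+/+ replicate 2 (0.0542 to 0.0753).
Of 15 genes of RNA polymerase I and its factors, which transcribe ribosomal RNA, 1 was lower, Taf1d (-0.17, adjusted p = 0.0249), whose call was lost with the trended variance (0.0594) and whichever array was left out except Dnajb4+/+ replicate 2 (0.0580 to 0.0910). Of 12 measured translation factors whose mRNAs carry TOP tracts 1 was lower, the initiation factor Eif4b, from 682 ± 6.41 to 571 ± 12.7 (SD, n = 3; -0.26, adjusted p = 0.00525). Of 24 other initiation factors 2 were higher (8.33%), with 2 to 7 higher and 0 to 4 lower under the alternatives. The 7 higher came without dim probe sets, beside 18.4% of all genes fitted. The 4 lower came there (33.2% of all genes fitted), within the upper quartile group (35.1%) and with the trended variance (12.4%). Eif1a, which takes part in scanning for the start codon, rose from 382 ± 6.49 to 538 ± 11.5 (SD, n = 3; 0.50, adjusted p = 3.72e-04), and Eif3b, a core subunit of Eif3, rose by 0.24 (adjusted p = 0.0102).
Of 20 measured genes of the mTORC1 pathway 2 were higher and 3 lower (25%), beside 14.7% of all genes. Under the alternatives 1 to 5 were higher and 1 to 3 lower. The 5 higher came without dim probe sets and within the upper quartile group, beside 18.4% and 19% of all genes fitted. Larp1, the repressor that binds TOP tracts, rose from 797, 805 and 798 to 951, 947 and 969 (0.26, SE 0.04, limma adjusted p = 0.00409), with all Dnajb4-/- arrays above all Dnajb4+/+ arrays. The GTPase Rraga rose by 0.25 (adjusted p = 0.0147), while Akt1s1, an inhibitory subunit of mTORC1, fell by 0.25 (adjusted p = 0.00522). The remaining calls, named after their values were seen, were the S6 kinase Rps6kb2 (-0.22, adjusted p = 0.0335) and the GTPase Rragc (-0.19, adjusted p = 0.0189). Rraga lost its call without Dnajb4-/- replicate 3 (adjusted p = 0.0520), Rps6kb2 whichever array was left out except that replicate (0.0820 to 0.0919), and Rragc likewise except for that replicate and Dnajb4+/+ replicate 2 (0.0600 to 0.0657). Centring on the brighter probe sets (adjusted p = 0.0677) and quantile normalization ended the call of Rps6kb2 (adjusted p = 0.0993). The medians of the RNA polymerase I, TOP factor, other initiation factor and mTORC1 lists were -0.015, -0.026, 0.002 and -0.002, beside 0.008 over all genes. Fau, which carries the small-subunit protein S30 under another name, was read at 6370 ± 28.9 and 6265 ± 128 (SD, n = 3) and did not pass (-0.02, adjusted p = 0.709), with a sign that turned when arrays were centred on the brighter probe sets (0.012).

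The ribosome of mitochondria is made of a separate set of proteins, with the names Mrpl and Mrps. Of its 76 measured genes 7 (9.21%) were lower and 69 did not pass, beside 14.7% of all genes called, 9.57% lower. In the upper quartile group of signal, which holds 57 of the 76, 30.8% of genes were called. The called differences lay between -0.24 and -0.16, with a median over the 76 of -0.023 and 73.7% of them within 0.1 of 0. Mrpl15 fell from 210 ± 3.15 to 178 ± 2.83 (SD, n = 3; -0.24, limma adjusted p = 0.00637), Mrps35 from 613, 593 and 639 to 536, 532 and 508 (-0.23, adjusted p = 0.0180) and Mrpl18 from 749.7 ± 6.60 to 659 ± 1.23 (-0.19, adjusted p = 0.0138). By its brightest probe set Mrpl15 did not pass (-0.10, adjusted p = 0.161). Mrpl18 lost its call without Dnajb4+/+ replicate 1 or 3 (0.0504 to 0.0537), and Mrps35 without these or Dnajb4-/- replicate 2 or 3 (0.0503 to 0.0613). For the cytosolic ribosome the corresponding values were 6 of 49 lower (12.2%), a median of -0.009 and 79.6% within 0.1. The families were not tested against each other.

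**Figure D5:**
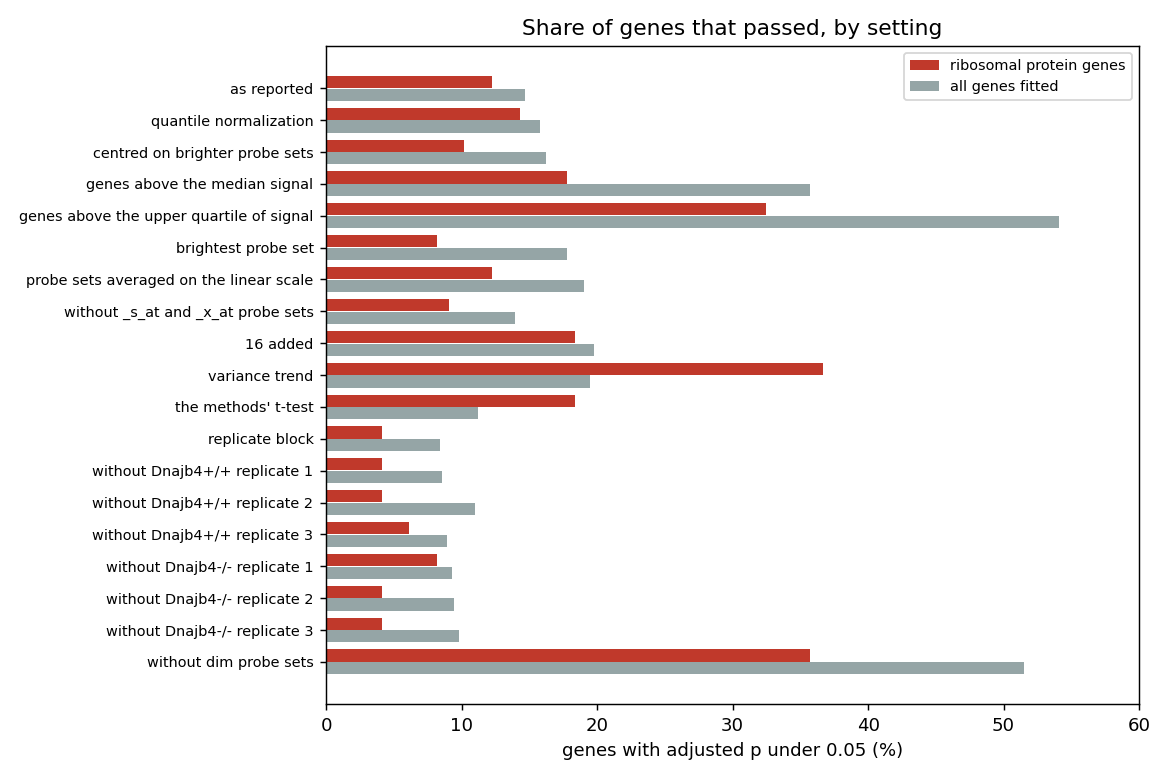
Percent of the ribosomal protein genes (red) and of all genes fitted (grey) with an adjusted p under 0.05 in the reported fit and under 18 alternatives. The red bar is longer with the trended variance (36.7% against 19.5%) and with the methods' t-test (18.4% against 11.2%), and shorter under each other setting, for example 32.5% against 54.1% within the upper quartile group of signal.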

How the data were processed

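Liver RNA of 6 mice was labelled with biotin and hybridised to the Affymetrix mouse expression array. The authors used GCRMA with global median centring in GeneSpring (version not given in the sources used here), and the deposited intensities are linear, 1 for each probe set, with no detection call. Of 45101 probe sets, 64 controls, 932 with several gene symbols and 9160 with none were left out. The remaining 34945 were converted to log2 and averaged for each gene. The methods state a mean over probe sets without its scale, and linear averages were an alternative. Identifiers matched the RefSeq table (GRCm38.p6) for 99.4%.

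Differences were fitted by limma 3.58.1 in R 4.3.3 with default eBayes and no filter on dim genes, and p-values (two-sided) were adjusted by Benjamini-Hochberg over all 18193 genes. The scripts were tested on simulated data. Groups and replicate numbers came from the labels, and the number of arrays limits the precision. The members and lists were chosen with earlier results of these data known. Named are, in each subunit, up to 5 called genes with the largest rise and up to 5 with the largest fall, the stalk proteins, Rpl5, Rpl11, Rpsa, Rps6, paralogs and their parents, X-linked members, ribosomal proteins with other names (Fau was measured), and up to 3 called genes of each other list, besides genes said to be chosen later. Alternatives changed the normalization, centring, signal filter, averaging, probe set designs, added constant (16), variance model, test or pairing, or left out an array. Python 3.11.15 and matplotlib 3.10.9 made the plots.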

Additional observations from a re-analysis of the deposited data

How the results depend on the processing

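The reported fit called 0 ribosomal protein genes higher and 6 lower, 2 of the large and 4 of the small subunit, and these counts rest on how the variance is modelled and on which genes share the fit. The trended variance gave 5 higher and 13 lower (8 large, 10 small), and the fit within the upper quartile group of signal 3 higher and 10 lower (7 large). Of all genes 14.7% were called in the reported fit, 19.5% with the trended variance, 54.1% within the upper quartile group and 51.5% without dim probe sets. Without dim probe sets, a setting chosen after seeing the data, 6 were higher, with 6 large and 9 small-subunit calls, and single probe sets, chosen likewise, gave 1 higher. Higher calls numbered 2 with quantile normalization (4 large), with arrays centred on the brighter probe sets (3 lower, 2 small), among genes above the median signal (4 large), with 16 added (5 large) and by the methods' t-test (4 large), and 1 with the brightest probe set (3 lower, 1 large) and with linear averages. In these settings 15.8%, 16.2%, 35.7%, 19.8%, 11.2%, 17.8% and 19% of all genes fitted were called, in that order. No large-subunit gene passed (0) without probe sets that can read several genes, where 13.9% of all genes fitted were called. Leaving out 1 array gave 2 to 4 lower, 0 to 1 large and 2 to 3 small-subunit calls and 0 higher, beside 8.53% to 11% of all genes. Rps4l and Rps9 were called in each of these fits. With arrays centred on the brighter probe sets the share of higher genes among all calls went from 34.7% to 51.7%, and with quantile normalization to 43.7%. The cause of these shifts was not tested. Under the filters both the number of genes adjusted for and the genes that share the variance fit changed.

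The median of the family was 0.026 with arrays centred on the brighter probe sets, -0.025 without probe sets that can read several genes, and -0.016 to 0 with an array left out. The median of the large minus the small subunit was 0.035 among genes above the median signal, 0.032 without probe sets that can read several genes, 0.027 with the brightest probe set, 0.025 with linear averages, 0.018 with 16 added, 0.016 without dim probe sets, and -0.015 to 0.033 with an array left out.

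No pairing of the arrays by replicate number was seen, though a weak one could go unseen with 3 arrays per genotype. Deviations of same-numbered arrays from their group means correlated at -0.0212, -0.141 and 0.00907 over genes, and the labels name no shared litter or day. With the replicate number as a block 2 genes were lower (Rps4l and Rps9), 0 of the large and 2 of the small subunit, beside 8.4% of all genes called. No called direction was reversed under any alternative. Of 753 values of named genes under the alternatives, 78 lost a call and 33 gained it.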

Other observations

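On probe sets that name several genes, 110 list a ribosomal protein symbol beside other symbols. Fitted over all 45037 probe sets, 2 of these were called higher and 2 lower with the knockout, where 10.4% of all probe sets were called. Their median log2 difference was -0.004, with values between -0.36 and 0.55. None of these values was assigned to a gene.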
